A study of Mus musculus with 3 samples.

Results

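Tal1, Lyl1, Lmo2, Fli1 and Erg are 5 transcription regulators that blood progenitors and endothelium both use. They were followed by their symbols, 5 of the 27998 genes counted, across cell classes of the AGM (aorta-gonad-mesonephros) in E10.5 mouse embryos. This is the part of the embryo in which haematopoietic stem cells first form from the wall of the dorsal aorta. Droplet sequencing of single cells (10x Genomics, version 2) counted the 3′ ends of transcripts as unique molecular identifiers (UMIs). Per the labels, AGM tissue was pooled over embryos of 28 to 32 somite pairs. Sorting gave 3 populations, each 1 sample run on 2 lanes. The type 1 precursors of haematopoietic stem cells were sorted as Ter119-CD31+VCad+CD41lowcKit+, the endothelial cells as Ter119-CD31+VCad+CD41-cKit+ and the niche as live Ter119- cells. No genotype, strain or treatment is given in the labels, and both sorted gates took cKit+ cells only, so endothelium without cKit entered through the niche sort alone. The count matrix is pooled over all 3 populations. The 8 suffixes of its barcodes, here numbered as libraries 1 to 8, are tied to no population by the labels.

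Tal1, also called Scl, and Lyl1 are closely related basic helix-loop-helix factors. They bind DNA with an E protein partner and join Lmo2, a LIM-only adaptor without DNA contacts of its own, Ldb1 and a GATA factor in a complex. Fli1 and Erg are closely related ETS factors, which bind sites with a GGAA core. In mouse blood stem and progenitor cells all 5 occupy many regulatory elements together with Runx1 and Gata2. Tal1 and Lmo2 are needed in the mouse for all blood formation and for remodelling of the vessels, Fli1 for vessel integrity and megakaryocyte maturation, and Erg for maintenance of stem cells and of endothelial identity.

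Each of the 5 genes had 1 row in the matrix, and all 5 identifiers matched GENCODE vM21 on GRCm38. Tal1 (ENSMUSG00000028717) lies on chr4:115056426-115071755, plus strand, and Erg (ENSMUSG00000040732) on chr16:95359169-95586593, minus strand, and neither overlaps another gene. Lmo2 (ENSMUSG00000032698) lies on chr2:103957986-103981878, plus strand, and its 3′ end is covered by 4931422A03Rik on the other strand, which had 0 UMIs in pre-HSC-like and venous-like cells. Lyl1 (ENSMUSG00000034041) lies on chr8:84701457-84704715, plus strand, and its 3′ end is covered by Nfix on the other strand. Among pre-HSC-like, other blood and venous-like cells Nfix reached at most 6.32 CPM. Fli1 (ENSMUSG00000016087) lies on chr9:32422204-32542861, minus strand, over 6 non-coding genes, none of which reaches its 3′ end. The kit marks strand, but no source used here says whether the counting used it, so the values of Lmo2 and Lyl1 could hold reads of these partners.

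RefSeq start-site windows on GRCm38.p6 were matched for 3 of the 5 genes. These 3 were the only ones with a window, and Lmo2 and Fli1 had 0. Tal1 had 2 windows, Lyl1 1 and Erg 3, and only the 250 bases before the most upstream start of each are shown. Capitals mark the ETS core GGAA on either strand, so TTCC is also in capitals. The windows are chr4:115056176-115056425 on the plus strand, chr8:84701207-84701456 on the plus strand and chr16:95586594-95586843 on the minus strand, and none holds annotated exon bases.
Tal1: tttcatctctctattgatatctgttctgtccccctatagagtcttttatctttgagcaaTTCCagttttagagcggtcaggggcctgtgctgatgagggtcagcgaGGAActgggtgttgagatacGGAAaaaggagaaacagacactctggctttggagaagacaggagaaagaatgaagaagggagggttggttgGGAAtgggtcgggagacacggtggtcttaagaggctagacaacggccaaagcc
Lyl1: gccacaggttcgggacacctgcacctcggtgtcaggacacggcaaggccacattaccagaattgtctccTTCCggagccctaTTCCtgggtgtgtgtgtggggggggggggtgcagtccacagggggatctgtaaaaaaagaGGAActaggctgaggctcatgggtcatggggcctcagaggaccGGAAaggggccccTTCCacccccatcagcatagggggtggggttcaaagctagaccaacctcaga
Erg: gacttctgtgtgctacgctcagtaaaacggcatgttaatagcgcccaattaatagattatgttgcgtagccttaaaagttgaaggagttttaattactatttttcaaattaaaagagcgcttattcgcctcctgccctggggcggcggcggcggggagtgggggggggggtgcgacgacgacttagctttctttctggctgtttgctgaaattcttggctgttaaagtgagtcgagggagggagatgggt
The Tal1 window holds 4 GGAA cores, the Lyl1 window 5 and the Erg window 0, against a median of 3 (quartiles 2 and 4) in 32851 RefSeq windows of the same length, of which 93.4% hold at least 1. The GATA sequence GATAA, searched on both strands, occurs once in the Tal1 window and in neither of the others (22.6% of all windows hold it). The E-box CANNTG, which reads the same on both strands, occurs once in the Lyl1 window and in neither of the others (66.2% of all windows). These counts describe letters in 3 windows and say nothing of binding.

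Cells were assigned to classes by how many genes of 19 marker lists had a UMI, and none of the 5 genes is in a list. Pre-HSC-like cells had at least 3 of 12 pan-blood genes and a UMI of Cdh5, the gene of VE-cadherin. Other blood cells had at least 3 pan-blood genes and no Cdh5 UMI. Macrophage-like and megakaryocyte-like cells were set apart first by their own lists. Endothelial-like cells had at least 4 of 12 pan-endothelial genes and at most 1 pan-blood gene, and were arterial-like or venous-like where at least 3 genes of that list were found and at least 2 more than of the other. Niche cells had at most 2 pan-endothelial and 1 pan-blood genes.

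Of 9492 barcodes, 8915 were kept. They held 116 other blood cells, 51 megakaryocyte-like, 77 macrophage-like, 141 pre-HSC-like, 13 arterial-like, 374 unresolved endothelial, 1445 venous-like and 6202 niche cells, while 282 cells met no gate. Libraries 7 and 8 held 107 of the 141 pre-HSC-like cells and 81 of the 116 other blood cells, and libraries 5 and 6 held 1366 of the 1445 venous-like cells. Nearly all niche cells lay in libraries 1 to 4. Median UMIs per deposited barcode ran between 6548 and 8698 in libraries 1 to 6 and stood at 14725.5 and 15593 in libraries 7 and 8. A total of 54 barcode sequences occurred in more than 1 library. Classes therefore differ in library and in depth, and a difference between classes cannot be fully told apart from one between libraries except where a library holds both.

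The class names fitted their markers in part. Sums over the marker lists are partly set by the gates, which used the same lists, so they describe the classes and do not check them. Pre-HSC-like cells summed to 1611 CPM over the 12 pan-endothelial genes and to 738 CPM over the 12 pan-blood genes, against 5712 and 87.8 CPM in venous-like cells. CPM gives the UMIs of a gene per 1000000 UMIs of the class. Itga2b, the gene of CD41, stood at 17.5 CPM in pre-HSC-like cells and 2.89 CPM in venous-like cells, and Kit at 81.1 CPM in pre-HSC-like and 13.1 CPM in venous-like cells. Neither gene is in a gate. Other blood cells had 62.6 CPM of Itga2b and 52.5 CPM of Kit. In pre-HSC-like cells 5 of 8 macrophage genes had 0 UMIs (C1qa, C1qb, C1qc, Cx3cr1 and Adgre1), and the whole list summed to 98.6 CPM, against 5.12 CPM in venous-like cells. The megakaryocyte list summed to 172 CPM in pre-HSC-like and 245 CPM in venous-like cells. Of its 9 genes, 3 had 0 UMIs in pre-HSC-like cells (median 4.37 CPM) and 6 had 0 UMIs in venous-like cells (median 0 CPM). A median of 0 arterial and 0 venous genes was detected per pre-HSC-like cell. The gates gave no vessel type to any cell with 3 or more pan-blood genes, whatever its arterial and venous genes. The gate has soft edges: 38 pre-HSC-like cells had exactly 3 pan-blood genes, 189 cells with a Cdh5 UMI had 2, and 40 pre-HSC-like cells had a single Cdh5 UMI.

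Every value below is a sum of UMIs over the cells of a class in 1 pooled sample, with an exact Poisson 95% interval that covers counting error only. There are no replicates and no test. A gene was called higher or lower where the log2 ratio of (CPM + 10) was at least 1 in size, the higher class had at least 50 CPM, and the direction was the same in each library where both classes had 20 or more cells. For each comparison the share of all genes of at least 10 CPM in either class that met the same rule is given as its background.

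Tal1 was higher in megakaryocyte-like, other blood and pre-HSC-like cells than in venous-like, unresolved endothelial and macrophage-like cells. It stood at 75.9 CPM (95% interval 62.9 to 90.7) in other blood cells, 128 CPM (101 to 159) in megakaryocyte-like cells and 28.8 CPM (18.8 to 42.2) in macrophage-like cells. Pre-HSC-like cells had 75.8 CPM (64.3 to 88.6), unresolved endothelial cells 24.0 CPM (18.2 to 31.0) and venous-like cells 29.0 CPM (26 to 32.2). The intervals of other blood and pre-HSC-like cells overlap, as do those of macrophage-like, venous-like and unresolved endothelial cells, and between these 2 groups lies a gap without overlap. Outside blood and endothelium the highest level was in neuron-like cells, at 3.56 CPM (2.14 to 5.56), while mesenchyme-like cells had 0 UMIs (3 counts would be 0.342 CPM).

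Lyl1 followed nearly the same order with a smaller spread. It stood at 147 CPM (128 to 167) in other blood, 213 CPM (178 to 253) in megakaryocyte-like and 83.1 CPM (65.4 to 104) in macrophage-like cells. Pre-HSC-like cells had 177 CPM (159 to 196), against 111 CPM (105 to 117) in venous-like and 95.9 CPM (84.0 to 109) in unresolved endothelial cells. The pre-HSC-like interval overlaps those of the megakaryocyte-like and other blood cells and lies above that of the venous-like cells. Germ cell-like cells had 0.603 CPM, from 1 UMI, and over all 6202 niche cells 5 UMIs were found (0.104 CPM). The 282 cells that met no gate had 72.5 CPM of Lyl1 and 176 CPM of Lmo2.

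Lmo2 was high in blood and endothelium alike. Its levels were 235 CPM (212 to 260) in other blood, 290 CPM (249 to 336) in megakaryocyte-like, 142 CPM (118 to 169) in macrophage-like and 232 CPM (211 to 253) in pre-HSC-like cells. Unresolved endothelial cells had 269 CPM (248 to 290) and venous-like cells 199 CPM (192 to 208). The first 4 places of its order, megakaryocyte-like, unresolved endothelial, other blood and pre-HSC-like cells, have overlapping neighbours, and venous-like and macrophage-like cells follow without overlap. Among classes of at least 20 cells gut epithelium-like cells came next, at 5.75 CPM from 2 UMIs.

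Fli1 was highest in megakaryocyte-like cells and was the member found furthest outside blood and endothelium. It stood at 63.9 CPM (52.0 to 77.6) in other blood, 159 CPM (129 to 194) in megakaryocyte-like, 60.9 CPM (45.9 to 79.3) in macrophage-like and 66.1 CPM (55.4 to 78.1) in pre-HSC-like cells, against 89.6 CPM (84.4 to 95.1) in venous-like cells. Apart from megakaryocyte-like cells, neighbouring classes of this group have overlapping intervals. Sclerotome-like cells, the precursors of vertebrae and ribs, had 35.3 CPM (31.0 to 40.0), smooth muscle-like cells 19.7 CPM (12.8 to 28.8) and mesenchyme-like cells 17.1 CPM (14.5 to 20.04), whereas neural progenitor-like cells had 1 UMI in 608 cells (0.212 CPM).

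Erg was highest in pre-HSC-like and endothelial cells. Other blood cells had 32.2 CPM (24.0 to 42.4), macrophage-like cells 6.65 CPM (2.44 to 14.5) and megakaryocyte-like cells 4.91 CPM (1.01 to 14.4). Pre-HSC-like cells had 69.9 CPM (59.0 to 82.3), venous-like cells 65.0 CPM (60.6 to 69.7) and unresolved endothelial cells 51.3 CPM (42.6 to 61.1). The interval of other blood cells overlaps neither neighbour, and those of macrophage-like, megakaryocyte-like and mesenchyme-like cells (4.78 CPM) overlap. Megakaryocyte-like cells thus had the highest level of Fli1 among all classes and an Erg level near that of the mesenchyme. The 12 erythroid-like cells had 0 UMIs of both Fli1 and Erg, where 3 counts would be 13.1 CPM, and 61.2 CPM of Tal1 from 14 UMIs.

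**Figure D1:**
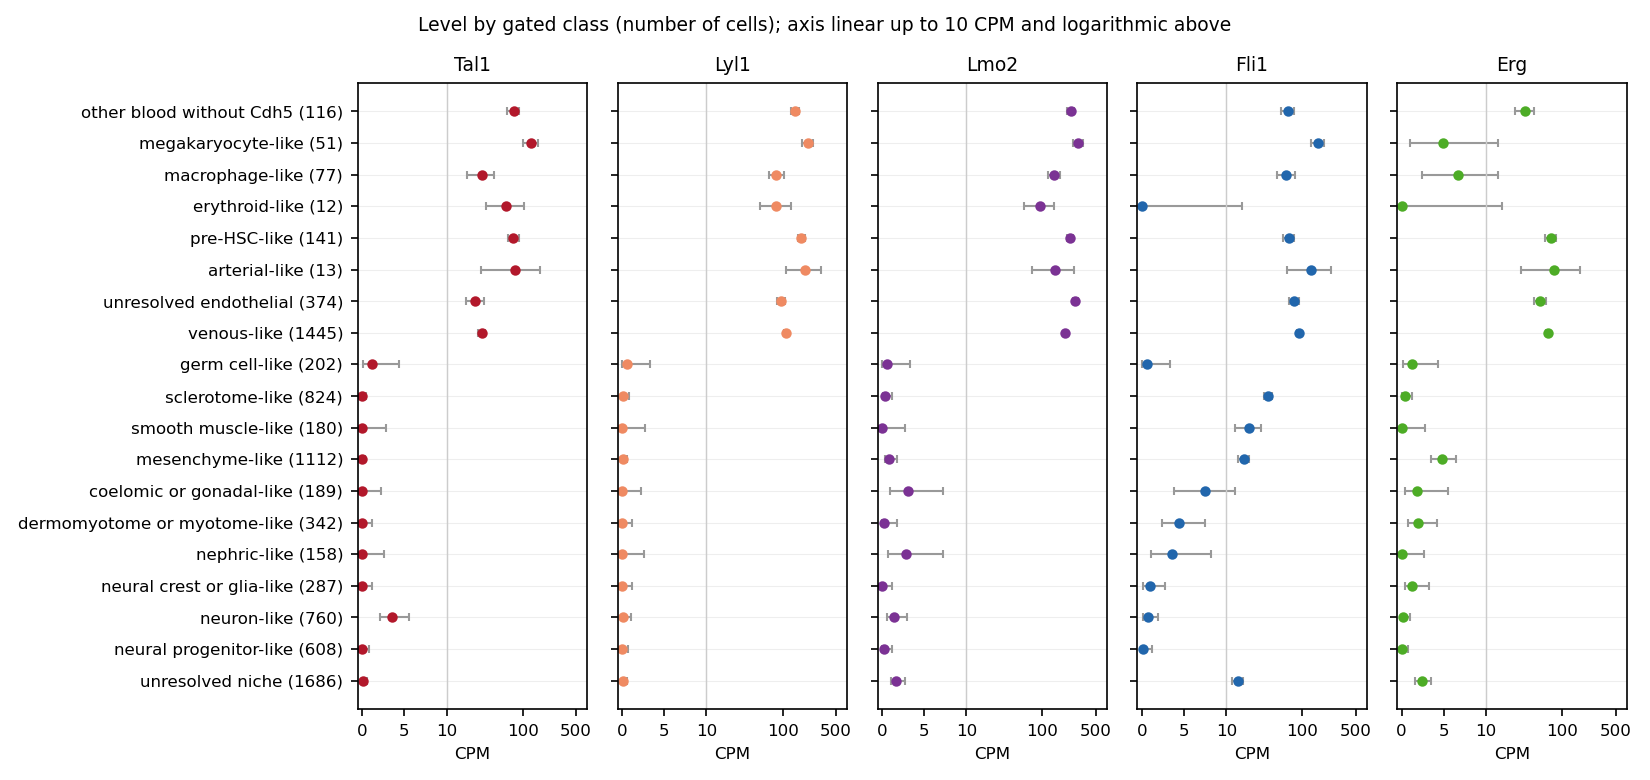
CPM of Tal1, Lyl1, Lmo2, Fli1 and Erg (1 panel each) in the gated classes, with the number of cells in brackets; points are summed UMIs over all libraries, bars are exact Poisson 95% intervals, and the axis is linear up to 10 CPM and logarithmic above. Lyl1 and Lmo2 drop by the whole range between blood or endothelial classes and the niche, Fli1 stays at 35.3 CPM in sclerotome-like cells, and Erg is at 4.91 CPM in megakaryocyte-like cells.

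Pre-HSC-like cells were set against venous-like cells to see which of the 5 factors differ between cells with blood genes and the endothelium beside them. Only Tal1 met the rule, at 75.8 CPM in pre-HSC-like cells (156 UMIs, in 83 of 141 cells) against 29.0 CPM in venous-like cells (351 UMIs, in 281 of 1445 cells), a log2 ratio of 1.14 (counting interval 0.91 to 1.37). Lyl1 had a log2 ratio of 0.63 (0.47 to 0.78), Lmo2 of 0.21 (0.07 to 0.34), Erg of 0.09 (-0.13 to 0.32) and Fli1 of -0.39 (-0.61 to -0.17), and none of these was called. Of 7908 genes, 2.0% were called higher and 3.15% lower, and the median log2 ratio was 0.21 over the 5 factors and -0.01 over all genes.

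No library held 20 cells of both classes, so the direction was not checked by library under the rule. Libraries 5 and 6 together held 24 pre-HSC-like and 1366 venous-like cells. There Tal1 stood at 73.3 CPM (41.9 to 119) in pre-HSC-like cells, from 16 UMIs, and at 28.1 CPM (25.1 to 31.4) in venous-like cells, a log2 ratio of 1.13. Lyl1 stood at 156 CPM (108 to 218) in pre-HSC-like and 112 CPM (106 to 119) in venous-like cells of these libraries, and the intervals overlap. The call of Tal1 was not met with gates of 2 blood genes and 3 endothelial genes (log2 ratio 0.70, 330 pre-HSC-like cells), with equal weight for each library (0.66) or in libraries 1 to 4 alone (0.43, 10 pre-HSC-like cells). Nor was it met in libraries 7 and 8 alone, which held 107 pre-HSC-like cells and 7 venous-like cells, with Tal1 at 77.0 against 37.3 CPM (log2 ratio 0.88, interval -0.14 to 1.90). The pan-endothelial sum, pan-blood sum and median depth (13776 UMIs in pre-HSC-like, 7839 in venous-like cells) differ with the classes, and their part in the ratio was not tested.

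The level of Tal1 was also read along the number of pan-blood genes detected in cells with a Cdh5 UMI, a breakdown chosen after the data were seen. With 0, 1, 2, 3 to 5 and 6 to 12 pan-blood genes, in 778, 814, 189, 103 and 38 cells, Tal1 stood at 27.6, 25.4, 29.3, 72.3 and 83.4 CPM. Lyl1 stood at 113, 107, 96.3, 181 and 167 CPM, and Runx1, the factor of the endothelial-to-haematopoietic transition, at 1.38, 4.0, 36.5, 150 and 158 CPM. Pooled over libraries, Tal1 and Lyl1 were level from 0 to 2 blood genes and higher from 3 on, while Runx1 was already higher at 2. Erg stayed between 59.7 and 73.7 CPM in all 5 steps. Within libraries 5 and 6 Tal1 stood at 28.4, 25.0, 22.4 and 71.2 CPM up to 3 to 5 blood genes, the last from 15 UMIs in 23 cells, and Lyl1 at 113, 107, 85.9 and 157 CPM. In libraries 7 and 8 cells with 2 blood genes already had 84.1 CPM (50.7 to 131) from 17 cells, against 22.4 CPM (15.6 to 31.2) in the 159 such cells of libraries 5 and 6. Lyl1 in libraries 7 and 8 showed no step, with 168, 146, 190 and 167 CPM from 1 gene on. Runx1 at 2 blood genes stood at 195 CPM in libraries 7 and 8 (44 of the 71 UMIs) and at 15.4 CPM in libraries 5 and 6. Libraries 7 and 8 gave 4, 8, 17, 72 and 35 cells to the 5 steps and median depth ran from 7000.5 to 16329.5 UMIs, so the steps also differ in library and depth.

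**Figure D2:**
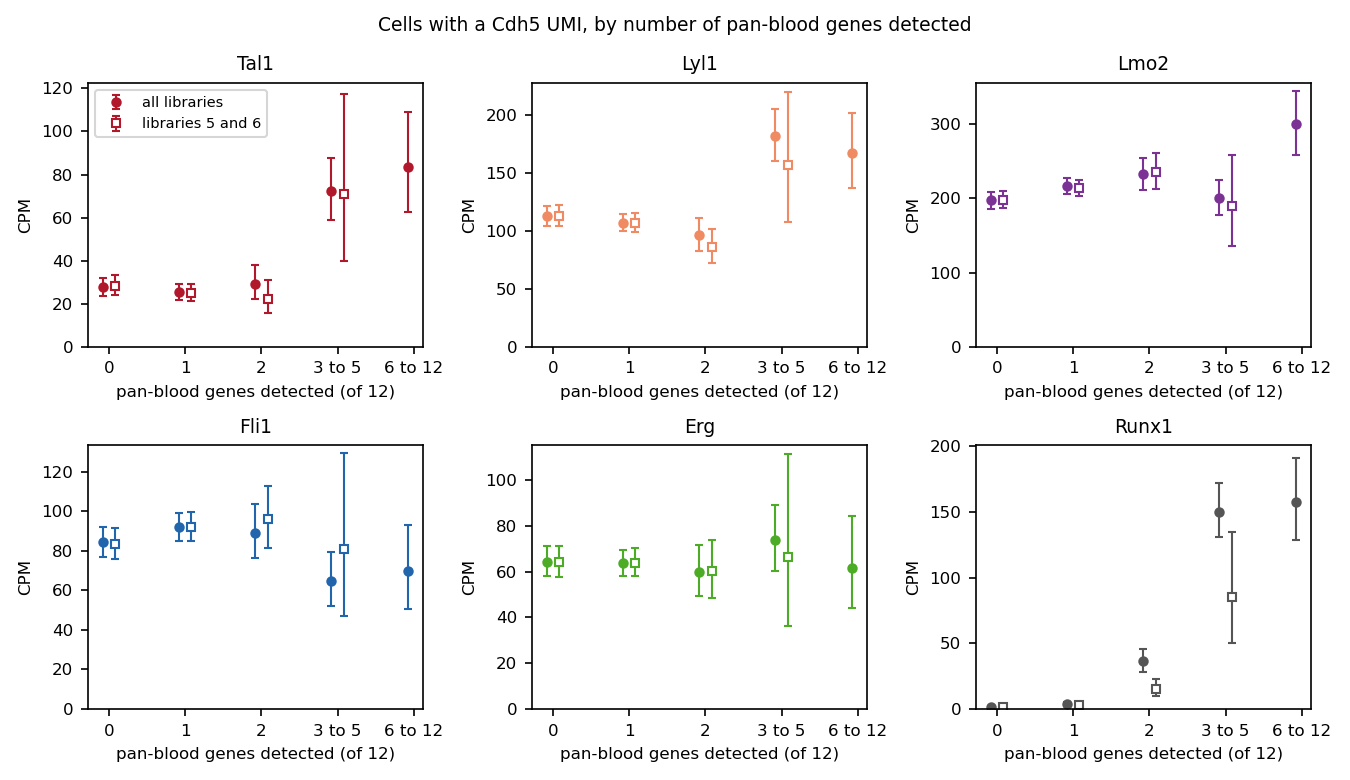
CPM of the 5 factors and of Runx1 in cells with a Cdh5 UMI, by the number of 12 pan-blood genes detected; filled points are all libraries, open squares libraries 5 and 6 (the last step, 1 cell there, is left out), and bars are exact Poisson 95% intervals. Over all libraries Tal1 and Lyl1 are level up to 2 genes and higher from 3 on, a step not seen at that place in libraries 7 and 8 (not drawn apart), and Erg stays between 59.7 and 73.7 CPM.

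Arterial endothelium was thinly sampled. The gate found 13 arterial-like cells with 76482 UMIs in all. Against them pre-HSC-like cells had no factor called (3.25% of 8914 genes were called higher and 7.48% lower). Tal1 stood at 75.8 CPM in pre-HSC-like and 78.5 CPM (28.8 to 171) in arterial-like cells (6 UMIs in 2 cells), and Fli1 at 66.1 CPM in pre-HSC-like and 131 CPM in arterial-like cells (log2 ratio -0.89). Against venous-like cells, arterial-like cells had Tal1 called higher (log2 ratio 1.18; 4.79% of genes higher, 2.43% lower) from the same 6 UMIs. A wider gate chosen after these counts were seen, with at least 2 arterial genes and at least as many as venous, held 66 cells. In it Tal1 stood at 29.7 CPM (16.6 to 49.0), Lyl1 at 109, Lmo2 at 277, Fli1 at 97.0 and Erg at 57.4 CPM. Pre-HSC-like cells then had Tal1 called higher (log2 ratio 1.11, interval 0.53 to 1.69; 1.94% of genes higher, 4.42% lower). For both of these Tal1 calls no library held enough cells of each class, so the direction was not checked by library. The wider arterial cells against venous-like cells had a Tal1 ratio of 0.03 (-0.53 to 0.58) and no factor called (0.574% higher, 0.222% lower). So whether arterial-like cells stood with pre-HSC-like or with venous-like cells in Tal1 changed with the gate.

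Endothelial-like cells were compared with the niche to give the background of each factor in tissue around the vessels. Lmo2 was called higher at 211 CPM in 1832 endothelial-like cells against 1.09 CPM in the niche (log2 ratio 4.31), Lyl1 at 109 against 0.104 CPM (3.56), Erg at 62.8 against 1.78 CPM (2.63) and Fli1 at 87.9 against 12.9 CPM (2.10). These directions held in all 5 libraries with enough cells of both. In libraries 1 to 4 alone, which held 6127 of the niche cells and 101 endothelial-like cells, Erg stood at 46.98 against 1.76 CPM, under the minimum level, and 3 factors were called. Tal1, at 28.4 against 0.439 CPM, had a log2 ratio of 1.88 and did not reach the minimum level of 50 CPM. Of 8184 genes 3.62% were called higher and 2.04% lower. In libraries 5 and 6 alone the niche held 73 cells, and Fli1 stood there at 87.8 CPM in endothelial-like cells against 0 UMIs in niche cells. Pre-HSC-like cells had all 5 called higher than the niche (3.39% of 8427 genes higher, 3.43% lower). Their log2 ratios were 4.45 for Lmo2, 4.21 for Lyl1, 3.04 for Tal1, 2.76 for Erg and 1.73 for Fli1. For these calls the direction was not checked by library, since no library held enough pre-HSC-like and niche cells.

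Of the 617 Fli1 UMIs in niche cells, 246 lay in sclerotome-like, 150 in mesenchyme-like and 155 in unresolved niche cells (14.1 CPM). In sclerotome-like cells 195 of 824 had a UMI, and of these 195 only 2 also had Erg and 2 had Pecam1, the gene of CD31. Cdh5 had 0 UMIs in all sclerotome-like cells, and the pan-endothelial list summed to 88.8 CPM with Cdh5, Tek, Esam and Cldn5 at 0. Pecam1 and Cdh5 are in that list, and niche cells were gated to at most 2 of its genes. Low endothelial values therefore follow in part from the gate. Among mesenchyme-like cells 123 of 1112 had Fli1 and 39 had Erg, and 9 cells had both. Among sclerotome markers, Pax1 was detected in 41.5% of the 195 sclerotome-like cells with Fli1 and 46.7% of the 629 without it, Pax9 in 42.6% and 40.9%, Foxc2 in 28.2% and 19.4% and Sox9 in 85.6% and 77.4%. These shares are of unthinned cells, and the part of depth in them was not tested.

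Other blood cells, in which no Cdh5 UMI was found, were next compared with pre-HSC-like cells. None of the 5 was called (0.679% of 7656 genes were higher and 1.31% lower). Tal1 had a log2 ratio of 0.00 (-0.30 to 0.31). It differed by library among other blood cells, at 21.8 CPM (7.07 to 50.8) in the 22 cells of libraries 1 to 4, 103 CPM (49.4 to 190) in the 13 of libraries 5 and 6 and 83.7 CPM (68.4 to 101) in the 81 of libraries 7 and 8. In libraries 1 to 4 alone it met the rule as lower than in pre-HSC-like cells (-1.13, interval -2.44 to 0.19). Lmo2 had a log2 ratio of 0.02 and Fli1 of -0.04, and Lyl1 of -0.25 (-0.48 to -0.03). Erg stood at 32.2 CPM in other blood and 69.9 CPM in pre-HSC-like cells, a log2 ratio of -0.92 (-1.29 to -0.55) that falls just short of the rule. In library 7 Erg stood at 35.7 CPM in other blood and 77.8 CPM in pre-HSC-like cells, and in library 8 at 29.8 and 62.8 CPM. In libraries 5 and 6 it stood at 72.2 CPM in other blood and 73.3 CPM in pre-HSC-like cells, from 7 and 16 UMIs. Erg met the rule with 3 endothelial genes in place of Cdh5 in the gate (-1.37), with gates of 2 blood and 3 endothelial genes (-1.0003), with a pseudocount of 1 (-1.09), without library 5 (-1.01) and in libraries 1 to 4 alone (-1.70, with 22 and 10 cells). The pan-endothelial sum was 414 CPM in other blood cells and 1611 CPM in pre-HSC-like cells, and 52 of the 116 other blood cells had at least 3 endothelial genes. Egr1 (111 against 18.9 CPM) and Fos (54.4 against 7.29 CPM), genes that dissociation can induce, were called higher in other blood cells, and their part was not tested.

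Macrophage-like cells had lower Tal1, Lyl1 and Erg than pre-HSC-like cells. Erg stood at 6.65 against 69.9 CPM (log2 ratio -2.26, interval -2.77 to -1.76), Tal1 at 28.8 against 75.8 CPM (-1.14) and Lyl1 at 83.1 against 177 CPM (-1.0048, interval -1.33 to -0.68). Lmo2 (-0.67) and Fli1 (-0.10) were not called, and 2.95% of 7888 genes were called higher and 2.55% lower. The 2 classes shared few libraries, since 67 of 77 macrophage-like cells lay in libraries 1 to 4. None held enough cells of both for the direction to be checked by library under the rule. In libraries 7 and 8 alone, with 10 macrophage-like and 107 pre-HSC-like cells, Erg stayed called at 25.0 against 69.0 CPM (-1.17), while Tal1 stood at 60.02 against 77.0 CPM (-0.31) and Lyl1 at 135 against 182 CPM (-0.40). Lmo2 turned direction there, at 340 against 239 CPM (0.49, interval 0.14 to 0.85), whereas in libraries 1 to 4 alone it was called lower, at 85.4 against 198 CPM (-1.13). The call of Lyl1 lay on the edge of the rule and was lost under 11 of the alternatives, and that of Tal1 was lost under 4, without library 3 (-0.89) among them. The pan-blood list summed to 2378.5 CPM in macrophage-like and 738 CPM in pre-HSC-like cells, and Fos (430 against 7.29 CPM) and Egr1 (176 against 18.9 CPM) were called higher in macrophage-like cells. Their part was not tested.

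Megakaryocyte-like cells had the 2 ETS factors in opposite directions. Fli1 was called higher at 159 CPM in megakaryocyte-like against 66.1 CPM in pre-HSC-like cells (log2 ratio 1.15, interval 0.81 to 1.49), and Erg lower at 4.91 against 69.9 CPM (-2.42, interval -3.00 to -1.85). Tal1 (0.68), Lmo2 (0.31) and Lyl1 (0.25) were not called (3.95% of 7857 genes higher, 2.3% lower). Here too the direction was not checked by library, since no library held enough cells of both classes. In libraries 7 and 8 alone, with 17 megakaryocyte-like cells, Erg stayed called (-1.95) and Fli1, with a log2 ratio of 0.84, did not. Lyl1 differed between the libraries of megakaryocyte-like cells, at 310 CPM (252 to 377) in the 34 cells of libraries 1 to 4 and 104 CPM (70.4 to 149) in the 17 cells of libraries 7 and 8. Within libraries 7 and 8 its log2 ratio against pre-HSC-like cells turned to -0.75 (-1.24 to -0.25), not called. With gates of 2 blood and 3 endothelial genes Tal1 was called higher (1.12) and Fli1 was not.

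**Figure D3:**
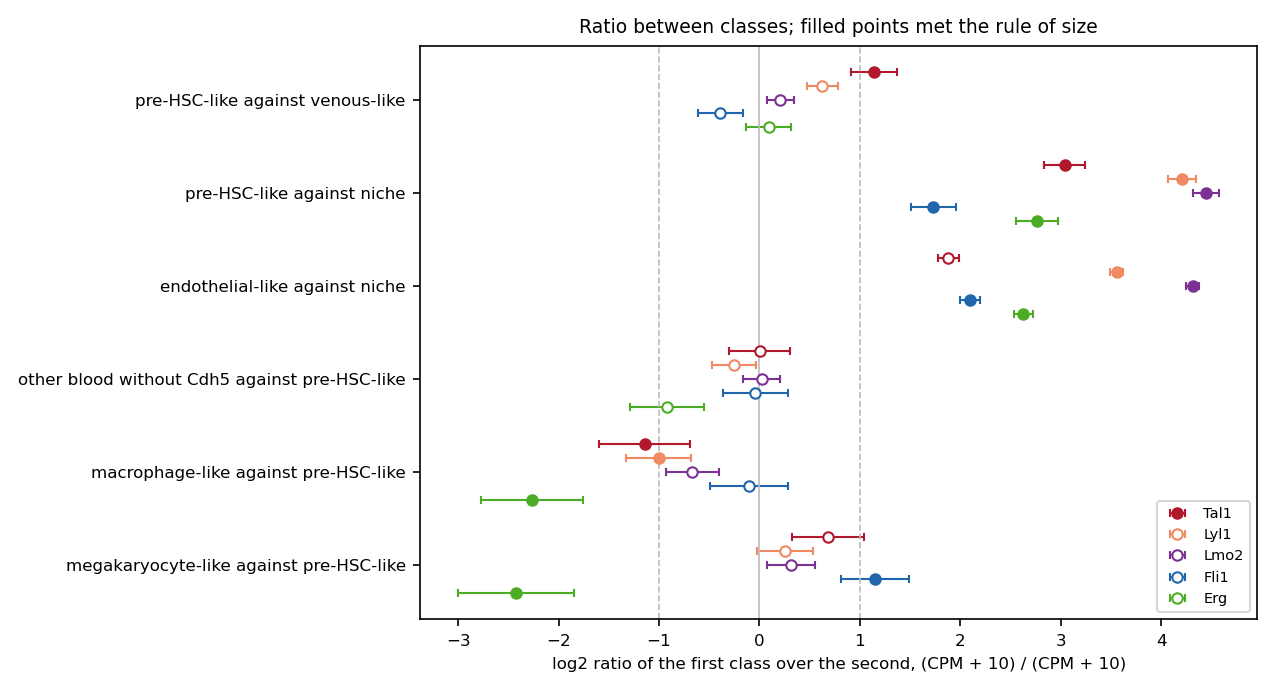
Log2 ratio of (CPM + 10) of the first class over the second for Tal1, Lyl1, Lmo2, Fli1 and Erg in 6 comparisons; bars are counting intervals, filled points met the rule of size and dashed lines stand at -1 and 1. Tal1 alone passes the line for pre-HSC-like against venous-like cells, and Fli1 (1.15) and Erg (-2.42) lie on opposite sides for megakaryocyte-like against pre-HSC-like cells.

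Levels were next read by library within a class. Venous-like cells of libraries 5 and 6 had none of the 5 called against those of libraries 1 to 4 (0.0% of 7562 genes higher and 0.0793% lower), with log2 ratios between -0.44 for Tal1 and 0.35 for Lyl1. Tal1 stood at 29.6 CPM in library 5, 27.0 CPM in library 6 and 79.5 CPM (47.1 to 126) in the 27 venous-like cells of library 1, from 18 UMIs. Without library 1 its ratio between libraries 5 and 6 and the others was 0.28. Pre-HSC-like cells of libraries 5 and 6 against those of libraries 7 and 8 likewise had none called (2.39% of 7909 genes higher, 1.26% lower). Tal1 stood there at 73.3 against 77.0 CPM, Lyl1 at 156 against 182 CPM and Erg at 73.3 against 69.0 CPM, and all 5 pairs of intervals overlap. In library 7 and library 8 pre-HSC-like cells had 79.2 and 75.5 CPM of Tal1, 172 and 188 CPM of Lyl1, 204 and 263 CPM of Lmo2, 73.6 and 56.9 CPM of Fli1 and 77.8 and 62.8 CPM of Erg. The counting intervals of these 2 libraries overlap for each of the 5 genes.

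**Figure D4:**
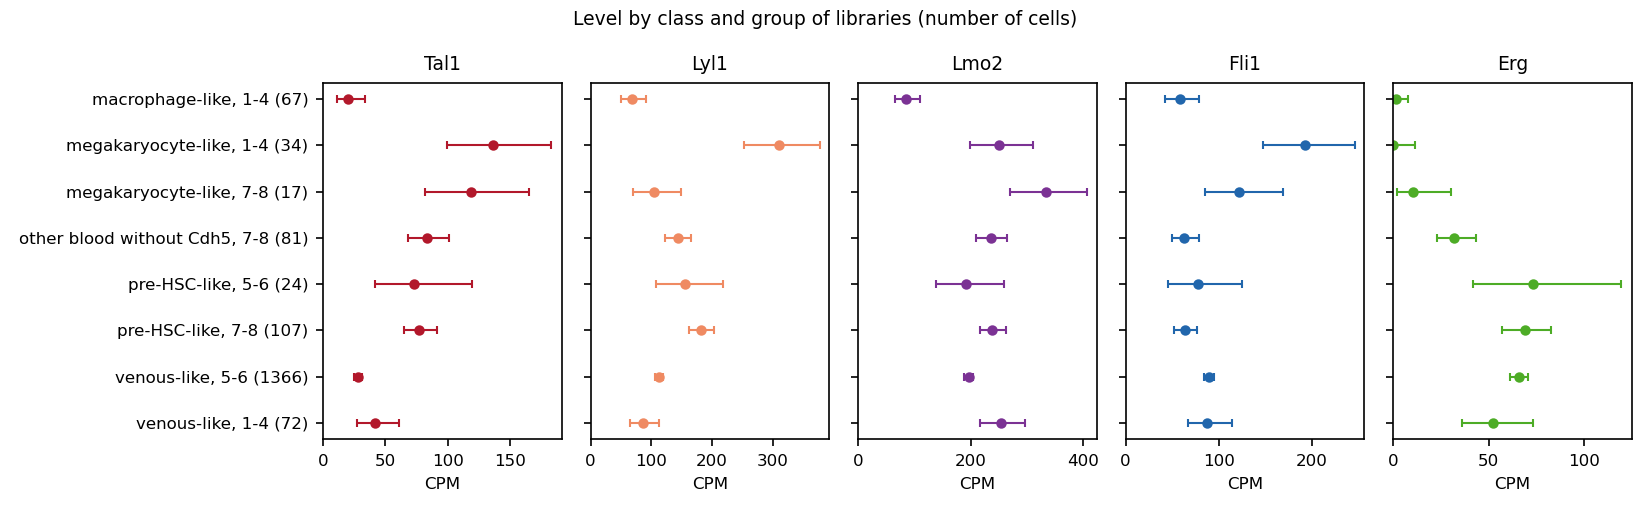
CPM of the 5 factors by class and group of libraries (given in the row labels), with the number of cells in brackets and exact Poisson 95% intervals; all axes start at 0. Tal1 in pre-HSC-like cells is 73.3 CPM in libraries 5 and 6 and 77.0 CPM in libraries 7 and 8, above venous-like cells in libraries 5 and 6 (28.1 CPM), and Lyl1 in megakaryocyte-like cells differs between libraries 1 to 4 and 7 to 8.

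At equal depth single cells showed few of the factors at once. After each cell was thinned to 3000 UMIs, 38 of 141 pre-HSC-like cells had a Tal1 UMI (27.0%, exact binomial interval 19.8 to 35.1%), against 107 of 1409 venous-like cells (7.59%, 6.26 to 9.10%). Before thinning the shares were 58.9% and 19.4%. In neural progenitor-like cells, which should lack the gene, 0 of 583 thinned cells had one (upper bound 0.631%). Only 4 of the 608 neural progenitor-like cells lay outside libraries 1 to 4, so this gives no background share for libraries 5 to 8. Lmo2 was found in 44.7% of pre-HSC-like and 40.0% of venous-like cells, Lyl1 in 36.9% and 27.4%, Erg in 24.1% and 17.2% and Fli1 in 18.4% and 23.4%. Of the 5 genes only Tal1 has intervals that do not overlap between these 2 classes.

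At least 3 of the 5 were found in 31.3% of 48 megakaryocyte-like, 12.1% of 116 other blood, 5.19% of 77 macrophage-like and 14.9% of 141 pre-HSC-like cells (9.46 to 21.9%), against 7.67% of venous-like cells (6.33 to 9.18%) and 0.0169% of niche cells. In thinned pre-HSC-like cells pairs of factors occurred together about as often as the product of their shares gives. Tal1 and Lmo2 were both found in 12.8% of cells (7.74 to 19.4%), against a product of 12.04%, and Tal1 and Lyl1 in 9.93%, against 9.94%. Lmo2 and Fli1 lay further from their product, at 4.26% (1.58 to 9.03%) from 6 cells, against 8.24%. All 10 pairs had the product inside their interval in pre-HSC-like cells and in venous-like cells. The pre-HSC-like pairs rest on 6 to 20 cells each, so their intervals are wide and cannot show that 2 factors occur independently. Over all endothelial-like cells 9 of 10 pairs had the product inside, and Lmo2 with Lyl1 was found in 9.89% (8.53 to 11.4%), against a product of 11.5%. For this pair the product lay inside the interval at 1500 UMIs (3.17%, 2.41 to 4.07%, product 3.31%) and without thinning (33.0%, 30.9 to 35.2%, product 33.5%).

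**Figure D5:**
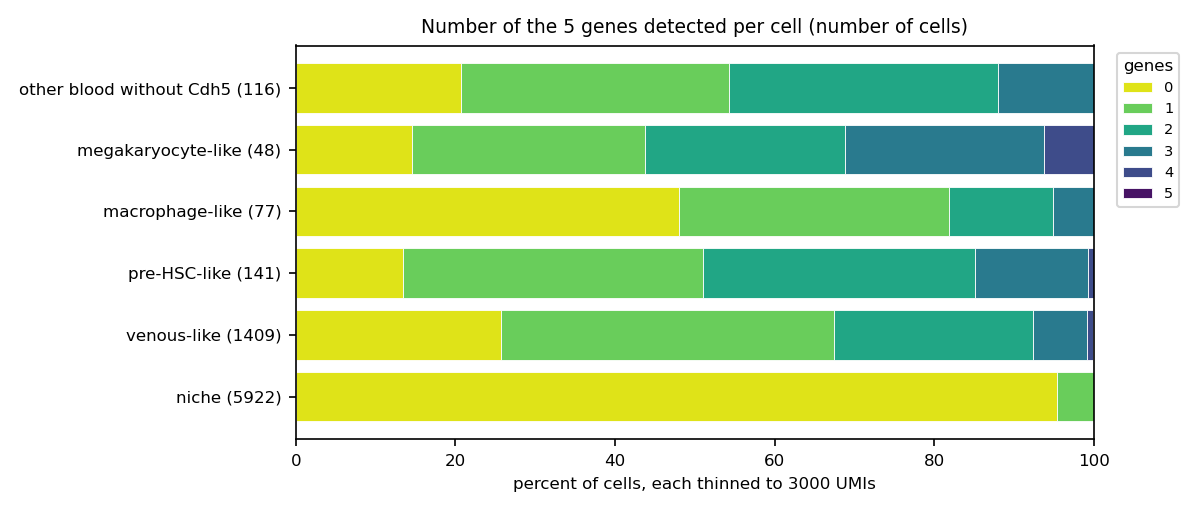
Percent of cells of each class with 0 to 5 of the 5 factors detected, each cell thinned to 3000 UMIs, with the number of cells in brackets. Megakaryocyte-like cells have the largest share with at least 3 (31.3%), pre-HSC-like cells 14.9%, venous-like cells 7.67%, and nearly all niche cells have 0.

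Partners of the 5 factors were read from lists of related genes, counted among those of at least 10 CPM in either class. Between pre-HSC-like and venous-like cells 2.0% of all such genes were called higher and 3.15% lower. Of the 2 further members of the group that binds together in blood progenitors, Runx1 was called higher in pre-HSC-like cells (153 against 0.578 CPM in venous-like cells, log2 ratio 3.94), and Gata2, a GATA factor of stem cells, was not (55.9 against 23.9 CPM). Gata2 was higher in pre-HSC-like cells too, but fell just short of the size in the rule. Of 14 tested genes (of 20) of the Tal1-Lmo2 complex and its relatives, 2 were called higher and 1 lower in pre-HSC-like cells, with a median log2 ratio of 0.46. Besides Runx1 these were the corepressor Cbfa2t3 (133 against 30.5 CPM, 1.82) and the E protein Tcf4 (58.3 against 176 CPM, -1.44). Tcf4 differed by library among pre-HSC-like cells, at 156 CPM in libraries 5 and 6 against 43.7 CPM in libraries 7 and 8, and so did Cbfa2t3, at 55.0 against 141 CPM.

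Of 12 tested (of 22) other ETS family genes, 2 were higher and 2 lower in pre-HSC-like against venous-like cells, with a median log2 ratio of 0.04. Over all genes 2.0% were higher and 3.15% lower. Spi1, the PU.1 factor of myeloid and lymphoid cells, stood at 306 against 0.578 CPM (4.90) and Elf1 at 73.8 against 8.09 CPM (2.21). Ets1 stood at 24.8 against 108 CPM (-1.77) and Elk3 at 30.6 against 122 CPM (-1.70). ETS genes thus differed in both directions while Fli1 and Erg were not called. Ets1 also differed by library within pre-HSC-like cells, at 82.5 CPM in libraries 5 and 6 against 17.2 CPM in libraries 7 and 8.

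Of 8 tested (of 12) genes described as targets of these factors, 4 were higher in pre-HSC-like cells and 0 lower (median log2 ratio 1.58, or 1.57 with Nfe2 at its floor). The shares of all genes were again 2.0% higher and 3.15% lower. Hlf, a factor of stem cells, stood at 84.5 against 0.248 CPM, Kit at 81.1 against 13.1 CPM and Zfp36l2 at 95.7 against 28.1 CPM. Nfe2, a factor of megakaryocyte and erythroid cells, stood at 66.5 CPM against 0 UMIs in venous-like cells, where 3 counts would be 0.248 CPM. Kit is also a gene of the sort. In megakaryocyte-like against pre-HSC-like cells 4 of 10 tested target genes were higher and 3 lower (all genes: 3.95% higher, 2.3% lower). Among them were Nfe2 (198 against 66.5 CPM) and Gfi1b (110 against 8.26 CPM) as higher and Kit (4.91 against 81.1 CPM) as lower. Gata1, the GATA factor of these cells, stood at 187 against 0.971 CPM (log2 ratio 4.16) and Spi1 at 39.3 against 306 CPM. In endothelial-like cells against the niche the ETS genes Elk3, Ets1 and Ets2 were called higher of 11 tested, at 118 against 7.29, 112 against 16.4 and 88.3 against 13.5 CPM. In that comparison 3.62% of all genes were higher and 2.04% lower. Among 13 tested genes of the complex list there, 1 was higher, the Ldb1-binding Ssbp4 (65.3 against 20.5 CPM), and 3 were lower, Tcf12 (62.4 against 150 CPM), Ssbp2 (38.7 against 97.5 CPM) and Lmo4 (24.4 against 75.1 CPM).

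The other blood classes were read against pre-HSC-like cells in the same lists. Of all genes, 0.679% were called higher and 1.31% lower in other blood cells, and 2.95% higher and 2.55% lower in macrophage-like cells. In other blood against pre-HSC-like cells 2 of 15 genes of the complex list were higher, the LIM-only gene Lmo4 (74.0 against 24.3 CPM) and the GATA cofactor Zfpm1 (58.8 against 20.4 CPM), 0 of 11 ETS genes were called, and of 8 target genes Hlf was lower (29.1 against 84.5 CPM). In macrophage-like against pre-HSC-like cells Gata2 (15.5 against 55.9 CPM) and Ssbp3 (8.86 against 60.7 CPM) were lower of 14, 0 of 12 ETS genes were called, and Hlf, Kit and Nfe2 were lower of 7 target genes. Of the 4 stress genes Fos, Jun, Egr1 and Hspa1a none was called between pre-HSC-like and venous-like cells, with Hspa1a at 43.2 against 10.1 CPM and Fos at 7.29 against 23.4 CPM. Hspa1a (201 against 43.2 CPM) joined Fos and Egr1 as higher in macrophage-like cells.

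Across the 18 classes with at least 20 cells, Pearson's r of log2 (CPM + 10) was used to name the genes with the most similar pattern among 5080 genes. The 18 points share libraries and differ in depth, so r is a description. Tal1 was most like Lyl1 (0.97), Tgfb1 (0.97), Tpst2 (0.96), Gata2 (0.96) and Gmfg (0.95). Lmo2 was most like Lyl1 (0.99), Klhl6 (0.98), Fxyd5, Pitpna and Vamp5 (0.97 each), and Lyl1 like Lmo2, Klhl6, Tal1, Gmfg and Tpst2. Erg was most like Fgd5 (0.98), Tie1 (0.97, a gene of the gates), Cd93 (0.97), Arap3 and Gimap6 (0.96 each). Fli1 had no gene above 0.92 (Gypc), followed by Pfn1 and Snx9 (0.91 each), Klhl6 and Tram1 (0.90 each). The 2 ETS factors had an r of 0.71 with each other, against 0.97 for Tal1 with Lyl1.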

How the data were processed

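Droplet RNA counts were measured in 3 sorted populations of E10.5 AGM cells. The authors deposited raw UMI counts per gene and barcode in 1 pooled matrix, not normalised, made with Cell Ranger on mm10 per the submitters' processing notes (version not given there). The deposited gene and barcode names hold no measured unit (other). The matrix holds 78653331 UMIs over 9492 barcodes, and about 50000 reads per barcode were aimed at, per the labels.

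A barcode needed 1000 UMIs, 500 detected genes and no more than 10% of UMIs from mitochondrial genes (9383 passed). Doublets were simulated, and the 5% of each library with most of them among their neighbours were removed (468), in scanpy 1.11.5 and scikit-learn 1.9.0. The labels state a doublet rate below 5%. Gates, thresholds and the pseudocount of 10 CPM are given with the results; UMIs were summed per class, and the comparison code was tested on simulated data. Intervals are exact Poisson (sums) and Clopper-Pearson (shares) at 95%, and cover counting error only (Python 3.11.15 with scipy 1.17.1, numpy 2.4.6 and pandas 2.3.3). A floor for 0 UMIs is 3 counts.

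The 5 genes, gene lists, gates and comparisons were chosen with earlier results of these data known. Named from the lists were the genes called in a comparison, at most 6 per list by size, and for each factor the 5 genes with the highest r. A wider arterial gate, subsets of libraries, the steps by blood genes and partner genes within niche classes were chosen after the data were seen. Libraries were assigned to no population, so no test was possible. Clusters (Leiden, leidenalg 0.10.2, igraph 0.11.9) served as an alternative to gates. Figures were drawn with matplotlib 3.10.9.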

Additional observations from a re-analysis of the deposited data

How the results depend on the processing

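With 1 pooled matrix and libraries that no label ties to a population, only counting error is known. Of 1125 values of single factors over the alternatives, 1031 moved by less than their counting interval, 92 moved by more and 2 that had met the rule changed sign. Both were Tal1 with classes taken from clusters, in arterial-like against venous-like (log2 ratio -0.0668) and in macrophage-like against pre-HSC-like cells (log2 ratio 0.0695); the cause was not tested. In all, 66 values had another sign than the pooled one. Those not called included Lmo2 in macrophage-like (0.49) and Lyl1 in megakaryocyte-like (-0.75) against pre-HSC-like cells in libraries 7 and 8, and Lmo2 in pre-HSC-like against venous-like cells in libraries 1 to 4 (-0.34). No paired analysis was possible because the results come from no test and the suffixes are not replicate numbers.

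Numbers of factors called changed as follows. The share of all genes called under each alternative is not given beside them. A changed count therefore cannot be told apart from a change in that share. Pre-HSC-like against arterial-like cells gave 1 with a looser filter on cells, 2 with clusters and 1 with the wider arterial gate, in place of 0. Pre-HSC-like against venous-like cells gave 0 with looser gates, equal weight per library, libraries 1 to 4 alone or libraries 7 and 8 alone (7 venous-like cells), in place of 1. Arterial-like against venous-like cells gave 0 with a stricter filter, clusters or the wider gate, in place of 1. Other blood against pre-HSC-like cells gave 1 with looser gates, 3 endothelial genes in place of Cdh5 or a pseudocount of 1, and 2 in libraries 1 to 4, in place of 0, and leaving out 1 library gave 0 to 1. Macrophage-like against pre-HSC-like cells gave 1 with looser gates, clusters or libraries 7 and 8 alone, in place of 3, and leaving out 1 library gave 1 to 3. Megakaryocyte-like against pre-HSC-like cells gave 1 in libraries 7 and 8 and 4 in libraries 1 to 4, in place of 2. Endothelial-like cells against the niche gave 3 in libraries 1 to 4, in place of 4. Pre-HSC-like cells of libraries 5 and 6 against 7 and 8 gave 1 with looser gates, in place of 0. Median-of-ratios scaling, no doublet removal and averaging over cells changed no number of calls by over 1.5 times.

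Shares of cells with at least 3 factors follow depth by construction. Unthinned and thinned to 1500 UMIs they were 80.1% and 2.84% in pre-HSC-like, 58.6% and 0% in other blood, 25.97% and 1.30% in macrophage-like, 82.4% and 3.92% in megakaryocyte-like, 41.9% and 1.59% in venous-like and 38.8% and 1.36% in endothelial-like cells.

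Not run were arterial-like cells by library (2 cells in libraries 1 to 4), arterial comparisons without library 5 or 6 (6 and 9 cells left), equal weight for arterial and megakaryocyte-like cells, clusters for other blood and megakaryocyte-like cells, stricter gates for pre-HSC-like cells by library (5 cells) and some subsets of libraries with too few cells.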

Other observations

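Etv2, the ETS factor that starts the endothelial and blood programme upstream of Tal1 and Lmo2 in the mouse embryo, was picked out of the ETS list after its values were seen. In venous-like cells it stood at 12.6 CPM (95% interval 10.6 to 14.9) in libraries 5 and 6, with a UMI in 91 of 1366 cells, and at 170 CPM (139 to 204) in libraries 1 to 4, with a UMI in 19 of 72 cells. Library 1 had 238 CPM, library 2 had 246 CPM, library 3 had 88.8 CPM and library 4 had 48.0 CPM. In library 1, 27 of the 54 UMIs lay in 1 cell, and library 4 rests on 6 UMIs in 2 cells. Library 5 had 13.1 CPM and library 6 had 12.2 CPM, so all 4 of the first libraries lay above both of these.

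Within libraries 1 to 4 the 19 venous-like cells with Etv2 had 126 CPM of Tal1 (79.9 to 189; 23 UMIs in 9 cells, of which 11 in 1 cell), against 8.58 CPM (2.34 to 22.0; 4 UMIs) in the 53 without it. Lmo2 stood at 427 CPM (338 to 533) in cells with Etv2 and 187 CPM (150 to 230) in cells without. Erg stood at 27.4 CPM (8.89 to 63.9) and 62.2 CPM (41.7 to 89.4), and Lyl1 at 49.3 CPM (22.5 to 93.6) and 101 CPM (74.1 to 134), with overlapping intervals. In libraries 5 and 6 the 91 cells with Etv2 had 46.1 CPM of Tal1 (33.8 to 61.3) and the 1275 without it 26.4 CPM (23.3 to 29.7). Lmo2 stood at 216 and 195 CPM and Fli1 at 90.2 and 89.5 CPM there. Median depth was 10003 UMIs with and 7681 UMIs without Etv2 in libraries 5 and 6, and its part in these differences was not tested.

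Tal1 outside blood and endothelium was found in 8 of 760 neuron-like cells, which held 19 UMIs. Partner genes were chosen after their values were seen. Gata2 was detected in 6 of these 8 cells and in 16 of the other 752 (2.13%), and Gata3 in 7 of 8 and in 35 of 752 (4.65%). Isl1, a factor of motor neurons and a gene of the neuron gate, was detected in 0 of 8 and in 474 of 752 (63.0%). Lmo2 was detected in 0 of 8 and in 8 of 752 cells, and the related gene Lmo4 in 0 of 8 and in 176 of 752 (23.4%). The upper bound for 0 of 8 is 36.9%, so these cells do not show that Lmo2 or Lmo4 differed. Another relative, Lmo1, stood at 28.9 CPM over all 760 neuron-like cells, and its detection in the 8 cells with Tal1 was not read.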
